A study of Rattus norvegicus with 12 samples.

Results

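The Hox genes encode homeodomain transcription factors and lie in 4 genomic clusters, HoxA to HoxD. All gene symbols of the form Hox, cluster letter and number were taken from the count table, which gave 38 members among 33294 symbols. HoxA and HoxB held 10 members each, and HoxC and HoxD held 9 each. Of these, 17 had enough counts to be tested among 18438 tested genes. These comprised 9 HoxA genes, 7 HoxB genes, Hoxc4 and no HoxD gene. Hoxa10 was not a member by symbol. Its RefSeq gene identifier belonged to an entry named LOC100911668, which is described separately.

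Hox proteins give cells their identity along the head-to-tail axis, and the order of the genes within a cluster follows the order of their expression along that axis. Genes with the same number in different clusters are paralogues, and low numbers (anterior) are used nearer the head than high numbers (posterior). Hox proteins bind DNA with cofactors of the TALE homeodomain class, while Polycomb and Trithorax complexes keep the clusters silent or active, and adult vascular smooth muscle retains a Hox pattern that reflects its place of origin.

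RNA was measured in PAC1, a smooth muscle cell line from rat pulmonary artery. This line is the common background of all groups, with no other agent or allele named. The study describes its RBPMS, RBFOX2 and QK knockdowns as made in PAC1 cells cultured towards a differentiated state. It reports that these cells were less differentiated than those of its other RNA-seq experiment. The 4 groups of 3 poly(A)-selected libraries received either the control siRNA C2 or 1 targeting siRNA, and the targets RBPMS, RBFOX2 and QKI are RNA-binding proteins that regulate splicing. The labels give 90 pmol of siRNA per well, a repeat dose at 24 h and collection 48 h after the repeat, and the methods of the study state longer intervals. The methods of the study call the repeats of a condition biological, the labels number the libraries of a group without naming their cultures, and each target had 1 siRNA. The sense strands of the 4 siRNAs, from the study's oligonucleotide list, are shown because they define the groups.
C2: aagguccggcucccccaaaug
RBPMS: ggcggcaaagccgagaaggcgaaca
RBFOX2: gcaaugguucagccuuuua
QKI: ggacuuacagcuaaacaac

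Library totals lay between 110.6 and 151.7 M counts, of which 11766 to 22272 per library fell on Hox genes. All of these totals exceed the fixed number of reads to which the methods of the study reduced each library, and those methods and the submitters' processing notes (STAR 2.5.2a) name different versions of the aligner, so that which processing run made the counts is not known here. Levels are given as CPM (counts divided by the TMM-scaled library total in M), and changes as log2 fold changes with their SE from a fit over all 12 libraries in edgeR. A gene was called higher or lower at an adjusted p under 0.05 and called changed when its absolute log2 fold change also exceeded 1. The targeted genes were lower in their own knockdowns, with log2 fold changes of −2.50 for Rbpms, −2.05 for Rbfox2 and −3.13 for Qk, the symbol used for QKI. Rbpms was also lower in RBFOX2 knockdown (−0.81) and in QKI knockdown (−0.49). Rbfox2 was lower in the RBPMS and QKI knockdowns (−0.12 and −0.15). Qk was higher in RBPMS knockdown (0.18) and lower in RBFOX2 knockdown (−0.42). The second RBPMS knockdown library stood apart from its group, with a chi-square per degree of freedom of 57.8 and 45.6 against the other 2, where the remaining 10 pairs within groups gave 4.64 to 21.5. The summed level of 8 smooth muscle markers was 2110 to 2175 CPM in control, 1069 to 1176 CPM in RBPMS knockdown, 827 to 925 CPM in RBFOX2 knockdown and 1441 to 1526 CPM in QKI knockdown.

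Markers of other cell types moved with the groups as well. The summed level of 6 endothelial markers was 8.75 to 10.8 CPM in control, 8.90 to 9.18 CPM in RBPMS knockdown, 5.22 to 5.81 CPM in RBFOX2 knockdown and 6.53 to 6.86 CPM in QKI knockdown, with Kdr, the main VEGF receptor of endothelial cells, at no more than 6 counts in any library. The 4 epithelial markers summed to 29.5 to 31.7 CPM in control, 36.3 to 44.2 CPM with the RBPMS siRNA, 72.0 to 73.9 CPM with the RBFOX2 siRNA and 32.3 to 34.2 CPM with the QKI siRNA, nearly all of it Krt8, while Krt18 reached 8 counts at most. The 4 leukocyte markers summed to 1.43 to 1.70 CPM in control, 1.61 to 2.08 CPM over the RBPMS and RBFOX2 knockdowns and 2.43 to 2.86 CPM in QKI knockdown, and Ptprc (CD45) had at most 4 counts. The 4 fibroblast markers, of which the collagen gene Col1a1 held most counts, summed to 7337 to 8472 CPM in control and to 13943 to 17076 CPM over the knockdowns. Of the tested markers, the smooth muscle list had 6, 5 and 5 of 8 lower and 2 higher in each knockdown, and the endothelial list had 1, 2 and 1 of 5 lower and 3, 0 and 3 higher. The epithelial list had 1, 1 and 2 of 3 higher, the leukocyte list 0, 0 and 1 of 2 higher, and the fibroblast list 1, 2 and 1 of 4 higher and 2, 1 and 3 lower. Over all tested genes 29.0%, 30.1% and 34.0% were lower and 30.4%, 30.1% and 32.9% higher in the 3 knockdowns. Cdh5, the endothelial cadherin, held most of the endothelial sum in control. It was lower in all 3 knockdowns, from 6.77 CPM in control to 5.59, 3.16 and 2.98 CPM. The log2 fold changes of Cdh5 were −0.28, −1.10 and −1.18 (adjusted p 0.0356, 1.72e-07 and 5.7e-08). Defining markers at low levels moved apart from the sums of their lists. Epcam of epithelium had a control level of 0.0588 CPM, was at 0.0296 and 0.0334 CPM with the RBPMS and RBFOX2 siRNAs and reached 0.368 CPM with the QKI siRNA, where it was higher by 2.62 on the log2 scale (SE 0.51, adjusted p 2.27e-04). Cdh1, the epithelial cadherin, went from 0.0815 CPM with the control siRNA to 0.391 CPM with the QKI siRNA (log2 fold change 2.23, SE 0.38, adjusted p 5.59e-05) and was at 0.0836 and 0.150 CPM with the other two siRNAs (adjusted p 0.954 and 0.0810). Pecam1 of endothelium had a control level of 0.0923 CPM. It was higher with the RBPMS siRNA, at 0.302 CPM (log2 fold change 1.70, adjusted p 5.71e-04), and with the QKI siRNA, at 0.224 CPM (1.27, adjusted p 0.00570), and its level with the RBFOX2 siRNA was 0.137 CPM (adjusted p 0.219). No marker of any list was at 0 throughout a group. The part of these marker differences in the Hox values was not tested, and fewer cells of a type and less RNA per cell cannot be told apart in bulk RNA.

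HoxA and HoxB held 99.9% of all Hox counts. In control, HoxA summed to 97.5 ± 6.36 CPM (SD, n = 3) and HoxB to 58.8 ± 1.74 CPM, not corrected for gene length, whereas HoxC summed to 0.135 ± 0.0104 CPM and HoxD to 0.0344 ± 0.0338 CPM. The highest count of any HoxC gene in any library was 17 and that of any HoxD gene was 6. The tested members comprised 5 anterior genes (paralogue groups 1 to 3), 10 central genes (groups 4 to 8) and 2 posterior genes (groups 9 to 13).

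**Figure D1:**
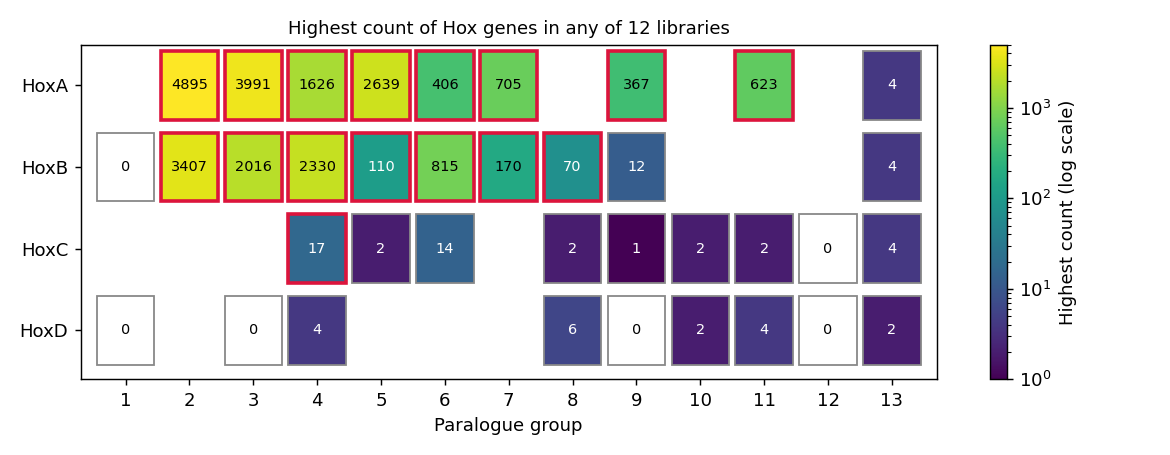
The grid shows the highest count of the Hox genes in any of the 12 libraries by cluster and paralogue group, with red frames around tested genes, white for 0 and no square where no member is listed or reported. HoxA reaches 4895 counts and HoxB 3407, while HoxC does not pass 17 and HoxD does not pass 6.

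The untested members were few in counts throughout. Hoxa13, a limb and genital tract gene, reached 4 counts, Hoxb9 12 counts and Hoxb13 4 counts, and Hoxb1, a hindbrain gene, had 0 counts in all libraries. In HoxC, Hoxc6 reached 14 counts, Hoxc13 reached 4, and Hoxc5, Hoxc8, Hoxc9, Hoxc10 and Hoxc11 reached at most 2. In HoxD, Hoxd8 reached 6 counts, Hoxd4 and Hoxd11 reached 4, and Hoxd10 and Hoxd13 reached 2. Hoxc12, Hoxd1, Hoxd3, Hoxd9 and Hoxd12 had 0 counts, so that 6 members in all were at 0 in every library. A count of 0 allows up to 3 counts, which corresponds to 0.0201 to 0.0282 CPM depending on the library, for counting error only. Of the 63 non-zero Hox values up to 20 counts, 55 were even (87.3%), against 68.7% of such values over all genes, and the limit for a count of 0 and the interval given for Hoxc4 treat each count as independent. Whether both mates of a read pair were counted was not tested. Where they were, the limit is too low and the interval too narrow.

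The HoxA total was below control in the RBPMS and QKI knockdowns, at 67.1 ± 1.81 CPM and 63.0 ± 2.54 CPM, while RBFOX2 knockdown was at 94.2 ± 1.93 CPM and overlapped the control range of 91.3 to 104 CPM. The HoxB total was 43.5 ± 0.882 CPM in RBPMS knockdown, 47.6 ± 1.72 CPM in RBFOX2 knockdown and 37.0 ± 1.29 CPM in QKI knockdown. All 9 of these knockdown libraries lay below the control range of 56.8 to 60.1 CPM. These totals weigh each gene by its counts, and with 3 libraries against 3 an exact permutation test cannot give a p below 0.1, so that none was run on them.

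Counted gene by gene, most members that passed the test were lower. In RBPMS knockdown, 10 of 17 tested members were lower and 2 were higher, where 29.0% of all tested genes were lower and 30.4% were higher. RBFOX2 knockdown gave 7 lower and 2 higher members, against 30.1% lower and 30.1% higher over all genes, and 4 were higher without control 3, when Hoxa6 and Hoxa11 were added. In QKI knockdown 9 members were lower and 4 were higher, against 34.0% and 32.9%. The median log2 fold change of the tested members was −0.47, −0.15 and −0.34 in the 3 knockdowns, where the median of all tested genes was 0.01 in each. The 3 comparisons share their control libraries. The filter on low counts decided which members were tested, so that these counts describe the 17 genes and not the 4 clusters.

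The members that changed by more than 2-fold were all lower. One of the 17 was changed in RBPMS knockdown, where 9.66% of all tested genes were, 1 in RBFOX2 knockdown (11.7% of all tested genes) and 4 in QKI knockdown (17.5%). The changed member in the RBPMS and RBFOX2 knockdowns was Hoxb8, and those in QKI knockdown were Hoxa3, Hoxa5, Hoxb3 and Hoxc4. The count in RBPMS knockdown was 0 without the second RBPMS knockdown library and 2 without control 1, when Hoxc4 was added. That in QKI knockdown was 2 without the third QKI knockdown library or with library totals only, and 1 in the authors' normalised table or with a test against the 2-fold threshold itself.

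**Figure D2:**
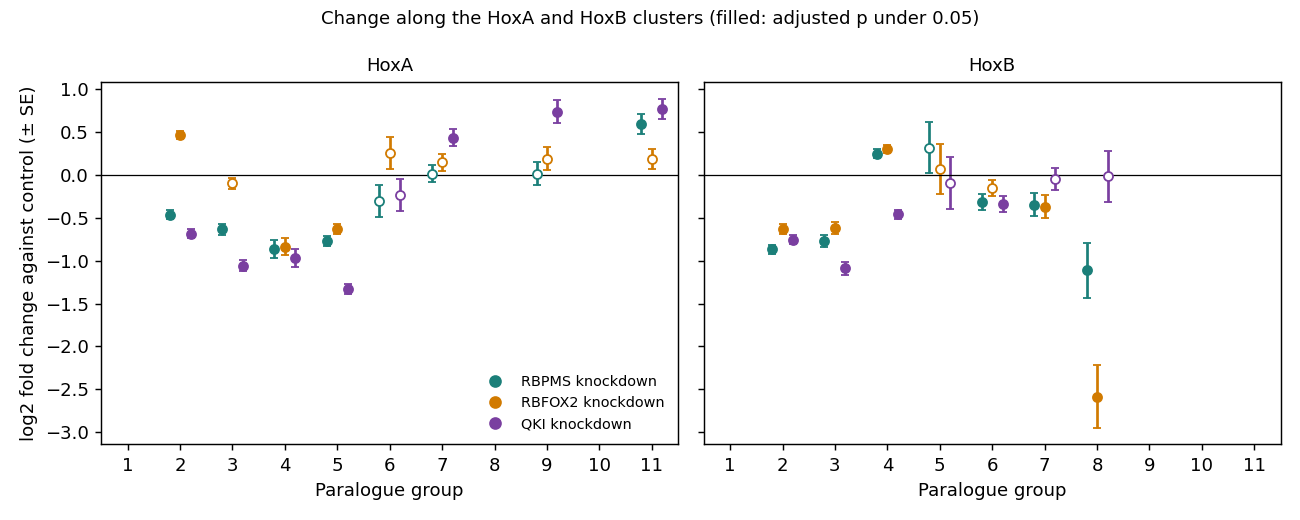
Points give the log2 fold change against control of the tested and reported HoxA genes (left) and HoxB genes (right) by paralogue group, with SE bars, a colour per knockdown and filled points for an adjusted p under 0.05. In HoxA the groups 3 to 5 lie at or below 0 in all knockdowns and the groups 9 and 11 lie above 0, and in HoxB group 4 is the one filled point above 0 in the RBPMS and RBFOX2 knockdowns.

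The members were then read by position within the cluster. Over all tested genes 29.0%, 30.1% and 34.0% were lower and 30.4%, 30.1% and 32.9% higher in the 3 knockdowns. Of the 5 anterior members, 5 were lower with the RBPMS siRNA, 3 with the RBFOX2 siRNA and 4 with the QKI siRNA. In the same order, 0, 1 and 1 of the anterior members were higher. The 10 central members had medians of −0.33, −0.19 and −0.29, with 5, 4 and 5 lower and 1 higher in each knockdown. Neither of the 2 posterior members was lower in any knockdown. These were Hoxa9 and Hoxa11, with medians of 0.30, 0.19 and 0.75. Both were higher in QKI knockdown, 1 in RBPMS knockdown and none in RBFOX2 knockdown. The entry with the gene identifier of Hoxa10, not a member by symbol, was lower in the RBPMS and RBFOX2 knockdowns (−0.46 and −0.33). In QKI knockdown that entry was at 0.06 (adjusted p 0.565). No test compared the positions, since the genes of a cluster are not independent replicates.

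Promoter sequences from RefSeq (build GRCr8, which differs from the authors' build mRatBN7.2) were matched for 19 of the 38 members and for 8 of the 17 tested ones. The 250 bases before the start site of 3 HoxA genes are shown because these genes moved in different ways. Hoxa2 was the gene higher only with the RBFOX2 siRNA, Hoxa4 was lower with all 3 siRNAs and Hoxa9 was higher with the QKI siRNA. They lie on the minus strand at chr4:82595693-82595942, chr4:82622303-82622552 and chr4:82657049-82657298 and are written 5′ to 3′, with the homeodomain core motif ATTA, or TAAT on the other strand, in capitals.
Hoxa2: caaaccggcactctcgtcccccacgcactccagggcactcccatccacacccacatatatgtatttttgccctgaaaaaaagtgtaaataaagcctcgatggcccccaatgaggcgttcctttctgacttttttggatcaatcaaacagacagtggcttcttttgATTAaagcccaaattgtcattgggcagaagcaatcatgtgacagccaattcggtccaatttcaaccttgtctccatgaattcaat
Hoxa4: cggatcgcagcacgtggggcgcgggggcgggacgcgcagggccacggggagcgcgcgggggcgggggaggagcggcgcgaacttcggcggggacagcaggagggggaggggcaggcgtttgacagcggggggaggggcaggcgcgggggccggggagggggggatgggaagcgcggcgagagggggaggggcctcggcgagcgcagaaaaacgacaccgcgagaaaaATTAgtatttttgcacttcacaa
Hoxa9: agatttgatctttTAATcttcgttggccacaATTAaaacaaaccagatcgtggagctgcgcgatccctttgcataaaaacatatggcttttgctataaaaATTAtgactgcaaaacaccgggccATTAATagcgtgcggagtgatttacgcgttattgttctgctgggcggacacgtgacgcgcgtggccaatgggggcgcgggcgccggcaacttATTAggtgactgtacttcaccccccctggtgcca

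The motif ATTA was searched on both strands and overlaps between matches were allowed. It occurred 1 time in the Hoxa2 sequence, 1 time in that of Hoxa4 and 6 times in that of Hoxa9, and at least once in 57.0% of 33465 promoters of the same length. Hoxa7 and Hoxa11, also higher in QKI knockdown, had 0 matches to ATTA in their windows. Hoxa9 also held 1 match each to TATAAA (12.9% of all promoters) and TTTATG (11.4%), the latter a motif of Cdx proteins, while Hoxa2 and Hoxa4 held neither. AGGTCA, the half-site of retinoic acid receptors, was in none of these 3 sequences and in 14.1% of all promoters. Hoxa4 had the highest CpG count of the 3, at 32 against 6 in Hoxa2 and 18 in Hoxa9, where the median promoter had 5. Hoxa6 and Hoxa7, which were not lower in any knockdown, had 28 each. These matches describe the letters of the windows and say nothing of binding.

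Among the anterior HoxA genes, Hoxa2, a selector gene of the pharyngeal arches, was higher in RBFOX2 knockdown alone. It was at 25.1, 23.3 and 26.8 CPM in control, 18.6, 17.7 and 18.1 CPM with the RBPMS siRNA, 34.5, 34.8 and 34.4 CPM with the RBFOX2 siRNA and 15.9, 16.1 and 14.6 CPM with the QKI siRNA. The RBFOX2 knockdown libraries were the highest of all and no knockdown group overlapped control. Its log2 fold changes were −0.47, 0.46 and −0.69 (SE 0.05 each; adjusted p 6.79e-07, 5.05e-07 and 3.21e-09).

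Hoxa3, needed for thymus and parathyroid formation, passed the test in 2 of the 3 knockdowns. It gave 29.1, 26.8 and 28.6 CPM in control, 17.7, 17.6 and 19.2 CPM with the RBPMS siRNA, 26.3, 25.2 and 27.5 CPM with the RBFOX2 siRNA and 13.8, 14.7 and 12.1 CPM with the QKI siRNA. Only the RBFOX2 knockdown libraries overlapped control. The log2 fold change was −0.63 (SE 0.06, adjusted p 1.50e-07) in RBPMS knockdown and −1.06 (SE 0.06, adjusted p 1.26e-10) in QKI knockdown, against −0.10 (adjusted p 0.188) in RBFOX2 knockdown. In QKI knockdown Hoxa3 stayed lower under all alternatives, but its log2 fold change did not reach −1 with library totals only (−0.97), in the authors' normalised table (−0.92) or without the third QKI knockdown library (−0.98).

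Hoxa4, which helps to pattern the cervical vertebrae, was lower in all 3 knockdowns. The control libraries were at 10.4, 10.2 and 11.9 CPM and the 9 knockdown libraries between 4.65 and 6.51 CPM, so that none overlapped control. The log2 fold changes were −0.86, −0.83 and −0.97 (SE 0.10 each; adjusted p 1.18e-06, 1.41e-06 and 1.95e-07). In the direct comparisons between knockdowns no difference passed the test, with 0.03 (SE 0.10, adjusted p 0.841), −0.10 (SE 0.11, adjusted p 0.409) and −0.13 (SE 0.10, adjusted p 0.274).

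Hoxa5, which is required for lung and airway development, had the largest fall of the members above 1 CPM. It was at 18.2, 17.5 and 19.4 CPM in control, 11.4, 10.6 and 10.2 CPM with the RBPMS siRNA, 12.3, 11.2 and 11.996 CPM with the RBFOX2 siRNA and 6.99, 7.44 and 7.48 CPM with the QKI siRNA. QKI knockdown lay lowest and no knockdown library reached the control range. The log2 fold changes were −0.77, −0.63 and −1.33 (SE 0.06 each; adjusted p 4.93e-09, 4.91e-08 and 2.52e-12), so that Hoxa5 kept 0.397 of its control level in QKI knockdown. In the RefSeq annotation the span of Hoxa3 overlaps those of Hoxa4, Hoxa5 and Hoxa6, and whether counting used strand or dropped shared reads was not stated, so that counts of these 4 genes are uncertain to that extent.

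Of the remaining HoxA genes, Hoxa6 was at 1.33 to 2.94 CPM in all 12 libraries and passed the test in no knockdown (adjusted p 0.183, 0.241 and 0.282). Hoxa7, at 3.18 to 3.995 CPM in control, was higher in QKI knockdown alone, at 5.09, 4.37 and 5.57 CPM (log2 fold change 0.43, SE 0.10, adjusted p 9.62e-04).

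Hoxa9, a regulator of blood progenitors and of endothelial cells, was at 1.59, 1.32 and 1.62 CPM in control and 2.65, 2.55 and 2.33 CPM in QKI knockdown. All QKI knockdown libraries were above all other libraries (log2 fold change 0.74, SE 0.13, adjusted p 9.01e-05), while the RBPMS and RBFOX2 knockdown libraries, at 1.39 to 1.89 CPM, overlapped control. Hoxa11, a limb and uterus gene, was at 2.24, 2.36 and 3.07 CPM in control, 3.60, 4.12 and 3.803 CPM with the RBPMS siRNA, 2.82, 2.93 and 3.00 CPM with the RBFOX2 siRNA and 4.50, 3.79 and 4.81 CPM with the QKI siRNA. The RBPMS and QKI knockdown libraries lay above control and those of RBFOX2 knockdown fell inside its range. Hoxa11 rose by 0.59 (SE 0.12, adjusted p 3.17e-04) and by 0.77 (SE 0.12, adjusted p 1.35e-05) on the log2 scale in the RBPMS and QKI knockdowns. In RBFOX2 knockdown it was at 0.19 (adjusted p 0.179), which passed the test without control 3 (0.34, adjusted p 0.0158).

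**Figure D3:**
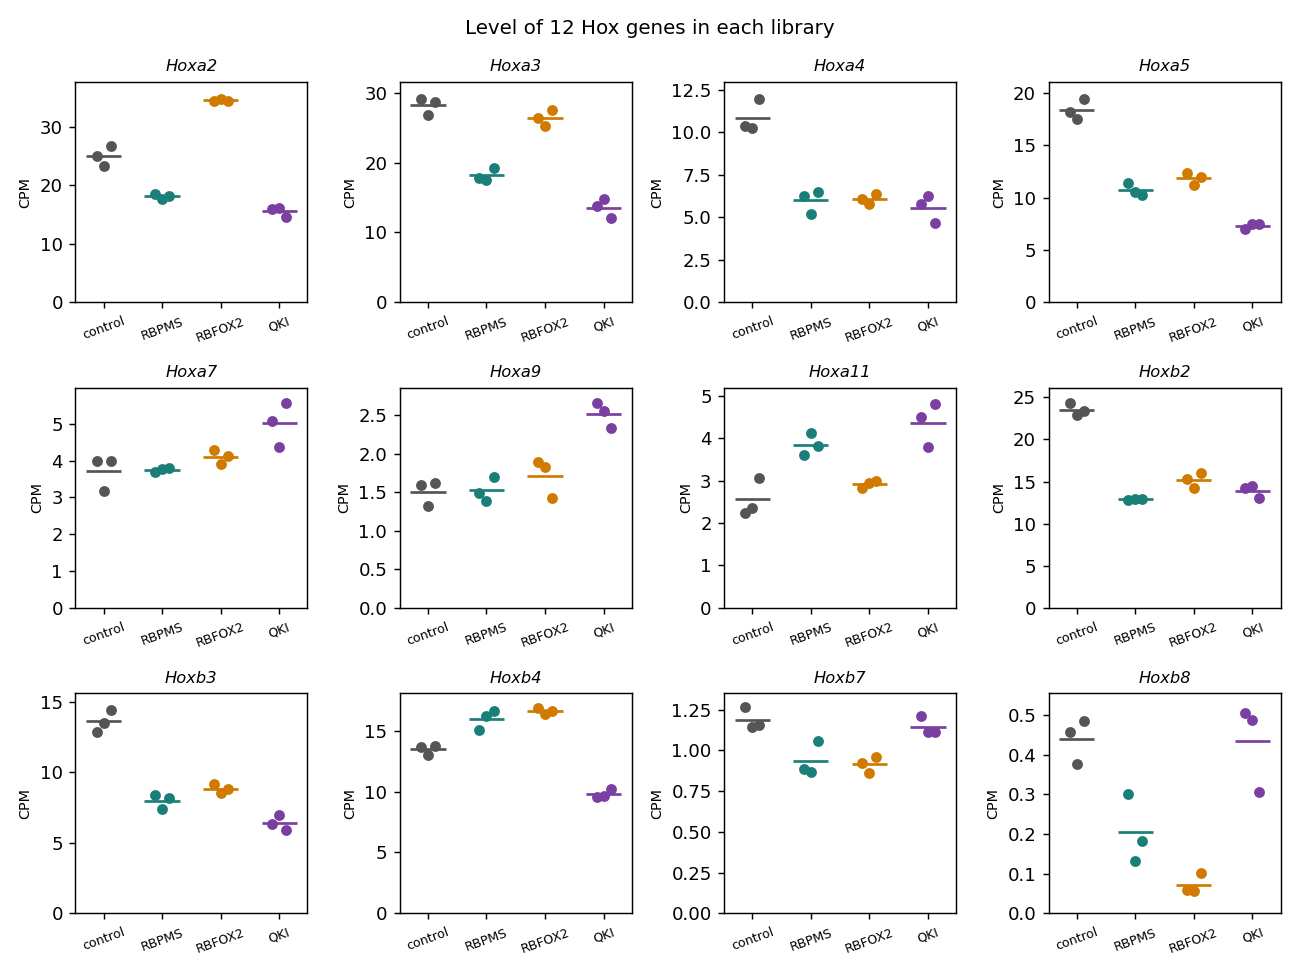
Each panel plots the CPM of 1 Hox gene in the 3 libraries of each group, with a line at the group mean and an axis from 0. Hoxa4, Hoxa5, Hoxb2 and Hoxb3 are below control in all 9 knockdown libraries, Hoxa2 is above control only in RBFOX2 knockdown, and Hoxa7 and Hoxa9 are above it without overlap only in QKI knockdown.

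In HoxB the anterior genes fell with all 3 siRNAs. Hoxb2, which patterns hindbrain and facial motor neurons, was 0.24 higher in RBFOX2 than in RBPMS knockdown on the log2 scale (SE 0.05, adjusted p 0.00129). It was at 24.3, 22.9 and 23.3 CPM in control, 12.8, 12.9 and 12.97 CPM with the RBPMS siRNA, 15.3, 14.3 and 16.0 CPM with the RBFOX2 siRNA and 14.2, 14.5 and 12.99 CPM with the QKI siRNA. No knockdown library came near control, and the log2 fold changes were −0.87, −0.63 and −0.76 (SE 0.05 each; adjusted p 4.09e-10, 1.70e-08 and 1.07e-09).

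Hoxb3, the paralogue of Hoxa3, was at 12.9, 13.5 and 14.4 CPM in control and 8.38, 7.41 and 8.20 CPM in RBPMS knockdown. It was at 9.21, 8.53 and 8.80 CPM in RBFOX2 knockdown and 6.35, 6.96 and 5.89 CPM in QKI knockdown. All 9 knockdown libraries were below control and those of QKI knockdown were the lowest. The log2 fold changes were −0.77, −0.62 and −1.09 (SE 0.07 each; adjusted p 4.53e-08, 4.95e-07 and 3.16e-10), and that in QKI knockdown was −0.96 in the authors' normalised table.

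Hoxb4, known for expanding blood stem cells, was higher in 2 knockdowns and lower in QKI knockdown. Levels were 13.6, 12.97 and 13.8 CPM in control, 15.0, 16.2 and 16.6 CPM with the RBPMS siRNA, 16.8, 16.4 and 16.6 CPM with the RBFOX2 siRNA and 9.54, 9.62 and 10.2 CPM with the QKI siRNA. The RBPMS and RBFOX2 knockdown libraries lay above control and those of QKI knockdown below it. The log2 fold changes were 0.24, 0.30 and −0.46 (SE 0.05 each; adjusted p 5.39e-04, 6.33e-05 and 5.81e-07).

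Of the next genes, Hoxb5 and Hoxb6 overlap the antisense gene Hoxb5os in the annotation. Hoxb5 stayed between 0.397 and 0.937 CPM and passed the test in no knockdown (adjusted p 0.369, 0.850 and 0.796). Hoxb6, at 5.36 to 6.66 CPM in control, was lower by log2 fold changes of −0.32 in RBPMS knockdown (adjusted p 0.00833) and −0.34 in QKI knockdown (adjusted p 0.00396). Hoxb7 was lower in the RBPMS and RBFOX2 knockdowns, with log2 fold changes of −0.35 (adjusted p 0.0374) and −0.37 (adjusted p 0.0239), from 1.14 to 1.27 CPM in control. The Hoxb6 calls were lost in the authors' normalised table, and those of Hoxb7 without control 1 (−0.30, adjusted p 0.112, and −0.33, adjusted p 0.0788). The Hoxb7 call in RBPMS knockdown was also lost with DESeq2 (adjusted p 0.0555) and in the authors' normalised table (0.107). A fit to the 6 libraries of the comparison (0.0745) and no filter on low counts (0.0810) lost it too. In RBFOX2 knockdown the Hoxb7 call was lost with library totals only (0.0511) and without that filter (0.0549). Without control 2, control 3 or the first RBPMS knockdown library the Hoxb7 adjusted p in RBPMS knockdown was 0.0511, 0.0562 and 0.0999, and without the second RBFOX2 knockdown library that in RBFOX2 knockdown was 0.0701. Without the second RBPMS knockdown library the Hoxb7 value in RBPMS knockdown was −0.29 (adjusted p 0.127), and without control 1 the Hoxb6 value there was −0.23 (adjusted p 0.0598).

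Hoxb8, a gene of myeloid progenitors and microglia, showed the largest change of the family at a low level. The counts were 56, 56 and 66 in control, 32, 18 and 20 with the RBPMS siRNA, 8, 8 and 14 with the RBFOX2 siRNA and 70, 56 and 38 with the QKI siRNA. The RBFOX2 knockdown libraries were lowest, those of RBPMS knockdown were below control without overlap in CPM, and QKI knockdown overlapped control. Control stood at 0.439 ± 0.0566 CPM and RBFOX2 knockdown at 0.0725 ± 0.0263 CPM. The log2 fold change was −2.58 (SE 0.36, adjusted p 9.13e-06) in RBFOX2 knockdown and −1.11 (SE 0.32, adjusted p 0.00672) in RBPMS knockdown. The latter was −0.86 (adjusted p 0.0382) without the second RBPMS knockdown library, while the former stayed between −2.92 and −2.17 under the alternatives that tested it.

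Hoxc4 was the lone tested HoxC gene. Its counts were 0, 17 and 14 in control, 4, 2 and 2 with the RBPMS siRNA, 6, 4 and 16 with the RBFOX2 siRNA and 2 in each QKI knockdown library. The control counts spanned those of all groups. In CPM the third RBFOX2 knockdown library (0.118) lay above the highest control library (0.114). In QKI knockdown the summed counts, scaled by the TMM-adjusted totals, were 0.209 of those in control (95% exact binomial interval 0.0713 to 0.508, for counting error only), and the edgeR adjusted p was 0.0482. That call was lost under 10 of the alternatives, including DESeq2 (adjusted p 0.0800) and leaving out control 2 (0.187), control 3 (0.137) or any QKI knockdown library (0.117, 0.0972 and 0.105). With halved counts Hoxc4 had too few counts to be tested, and 3 members were changed in QKI knockdown.

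The 3 knockdowns were also compared with each other, which tests differences between siRNAs directly. Between RBFOX2 and RBPMS knockdown 1 member differed by more than 2-fold (7.52% of all tested genes), namely Hoxb8 with a log2 difference of −1.47 (SE 0.40, adjusted p 0.00467), lower in RBFOX2 knockdown. Between QKI and RBPMS knockdown 2 members did (12.2%), both higher in QKI knockdown, and 1 of them was Hoxb8 with 1.10 (SE 0.32, adjusted p 0.00751). The Hoxb8 difference was 0.84 without the second RBPMS knockdown library and 0.97 without the first QKI knockdown library, which left 1 member beyond 2-fold. Between QKI and RBFOX2 knockdown 2 members differed as well (18.4%), Hoxa2 with −1.15 (SE 0.05, adjusted p 3.14e-12) and Hoxb8 with 2.57 (SE 0.37, adjusted p 7.71e-06).

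At an adjusted p under 0.05 alone, 7 of 17 members differed between RBFOX2 and RBPMS knockdown (5 higher in RBFOX2 knockdown), 9 between QKI and RBPMS knockdown (4 higher in QKI knockdown) and 13 between QKI and RBFOX2 knockdown (6 higher in QKI knockdown). Over all tested genes 56.7% (27.9% higher and 28.8% lower), 61.0% (29.0% and 32.0%) and 68.5% (33.5% and 35.0%) differed in these comparisons, and nothing about the members is read from their counts. Hoxa9, at 0.55 (SE 0.13, adjusted p 0.00119), and Hoxa11, at 0.58 (SE 0.11, adjusted p 2.14e-04), were higher in QKI than in RBFOX2 knockdown, whereas Hoxa3, at −0.96 (SE 0.06, adjusted p 4.89e-10), and Hoxa5, at −0.70 (SE 0.06, adjusted p 1.64e-08), were lower.

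Paralogues of the same number sit in different clusters and were set against each other within each library, which needs no scaling between libraries. The log2 ratio of Hoxa2 to Hoxb2 counts was 0.04, 0.03 and 0.20 in control, 0.54, 0.46 and 0.48 with the RBPMS siRNA, 1.18, 1.29 and 1.10 with the RBFOX2 siRNA and 0.16, 0.16 and 0.17 with the QKI siRNA. The balance thus lay towards Hoxa2 in the RBPMS and RBFOX2 knockdowns, by 0.40 and 1.10 on average, and overlapped control in QKI knockdown. For Hoxa4 to Hoxb4 the ratio was −0.40, −0.34 and −0.21 in control, −1.26, −1.64 and −1.35 with the RBPMS siRNA, −1.48, −1.496 and −1.38 with the RBFOX2 siRNA and −0.73, −0.62 and −1.14 with the QKI siRNA. All 9 knockdown libraries were below control, by −1.11, −1.13 and −0.52 on average.

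The other pairs differed less regularly. Hoxa3 to Hoxb3 differed from control without overlap in RBFOX2 knockdown alone, by 0.52. Hoxa7 to Hoxb7 lay above control without overlap in all knockdowns, by 0.37, 0.52 and 0.48. Hoxa5 to Hoxb5 lay below control without overlap in the RBPMS and QKI knockdowns, by −1.15 and −1.28, with control spread over 4.34 to 5.61. This pair rests on few counts of Hoxb5, at 54 to 110 per library and at 110, 80 and 54 in control. Hoxa6 to Hoxb6 overlapped control in every knockdown. Since 3 libraries against 3 cannot give an exact p below 0.1, these ratios are given as values.

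**Figure D4:**
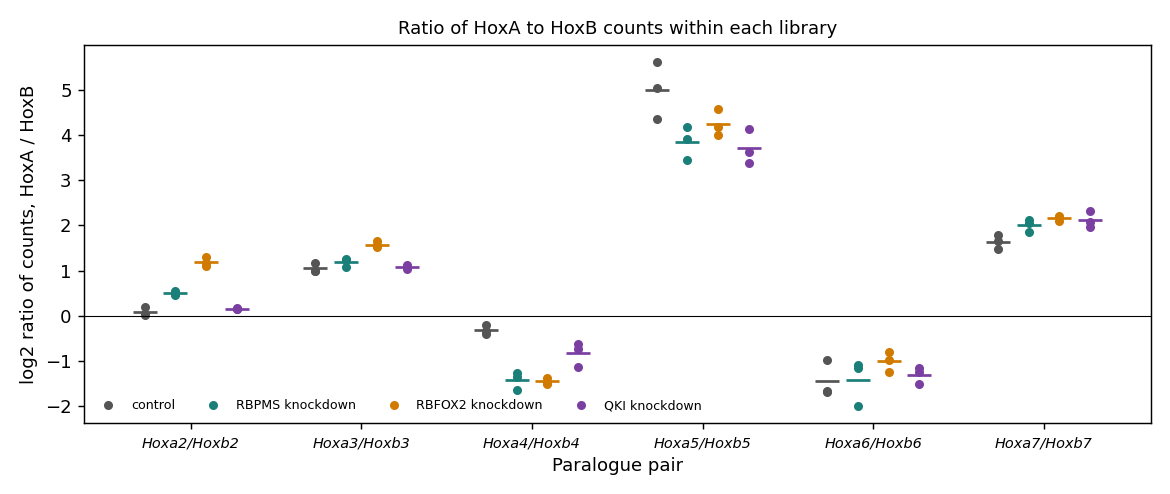
Points show the log2 ratio of HoxA to HoxB counts in each library for 6 paralogue pairs, with group means as lines and colours for the 4 groups. The Hoxa2/Hoxb2 ratio is highest in RBFOX2 knockdown at 1.10 to 1.29, and the Hoxa4/Hoxb4 ratio is below control in all knockdown libraries.

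Non-coding and unnamed transcripts of the clusters were read beside their neighbours. Hotairm1, a non-coding RNA at the anterior end of HoxA that is known for regulating HoxA in myeloid cells, was at 3.92, 3.26 and 3.79 CPM in control and between 1.81 and 2.72 CPM in the 9 knockdown libraries. It was lower in all 3, with log2 fold changes of −0.87, −0.50 and −0.77 (SE 0.11 each; adjusted p 2.90e-06, 6.12e-04 and 7.61e-06). Hoxa11-as, the antisense transcript of Hoxa11, was at 0.547, 0.638 and 0.624 CPM in control and was higher in the RBPMS knockdown by 0.45 (adjusted p 0.0474) and in the QKI knockdown by 0.77 (adjusted p 0.00129). The RefSeq spans of Hoxa11 and Hoxa11-as did not overlap in GRCr8, but without knowledge of strand in counting their reads cannot be told apart with certainty.

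LOC100911668, the entry with the gene identifier of Hoxa10, was at 6.48, 6.16 and 7.37 CPM in control. It was lower in RBPMS knockdown, at −0.46 (adjusted p 1.81e-04), and in RBFOX2 knockdown, at −0.33 (adjusted p 0.00261), and was at 0.06 (adjusted p 0.565) in QKI knockdown. Hoxaas3 and Hoxb5os, which overlap Hox genes, passed the test in no knockdown. The hairpin entries of the cluster microRNAs were nearly empty, with at most 9 counts for Mir10a, at most 7 for Mir196b and 0 for Mir10b, Mir196a, Mir196c and Mir615, in libraries that select poly(A) RNA.

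The listed genes of the TALE homeodomain class, which include cofactors of Hox proteins, were all tested. For this list and those below, 29.0%, 30.1% and 34.0% of all tested genes were lower in the 3 knockdowns. In the same order, 30.4%, 30.1% and 32.9% of all tested genes were higher. No list was tested as a set. Of 11 genes, 6 were lower and 3 higher in RBPMS knockdown, 6 lower and 3 higher in RBFOX2 knockdown, and 5 lower and 4 higher in QKI knockdown. Tgif2, a repressor, was lower at −0.88 and −0.91 in the RBPMS and RBFOX2 knockdowns and was at 0.00 (adjusted p 0.97) in QKI knockdown. Pknox2 was higher in RBFOX2 knockdown at 0.84 and lower in QKI knockdown at −0.93, Pbx2 was higher in QKI knockdown at 0.81, and Meis3 was lower in all 3 at −0.68, −0.52 and −0.32. Meis1, the cofactor with which several Hox proteins pair, was lower as well, from 62.6 CPM in control to 47.8, 51.0 and 41.6 CPM.

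Genes of the Polycomb repressive complexes passed the test in both directions. So did all tested genes, with 30.4%, 30.1% and 32.9% higher and 29.0%, 30.1% and 34.0% lower in the 3 knockdowns. Of 22 genes, 7 were higher and 6 lower in RBPMS knockdown, 6 higher and 10 lower in RBFOX2 knockdown, and 11 higher and 5 lower in QKI knockdown. Cbx7, a chromobox reader of H3K27 methylation, fell from 3.19 CPM in control to 1.03, 1.02 and 1.14 CPM, with log2 fold changes of −1.63, −1.65 and −1.48 (SE 0.13 each; adjusted p 1.04e-08, 6.60e-09 and 1.67e-08). Jarid2, an accessory subunit that helps to recruit the methyltransferase complex, was lower at −1.30, −1.29 and −0.58. Ezh2, the methyltransferase, was higher at 0.64, 0.40 and 0.52, Rbbp7, a histone chaperone subunit, was higher at 0.59, 0.43 and 0.65, and Ring1, an ubiquitin ligase, was higher in RBPMS knockdown at 0.72.

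The Trithorax group and H3K27 demethylases, which oppose Polycomb, had 7 higher and 3 lower of 11 genes with the RBPMS siRNA, 5 and 3 with the RBFOX2 siRNA, and 4 and 3 with the QKI siRNA. Kdm6a, a demethylase, was higher at 0.51, 0.35 and 0.86, Kdm6b, another demethylase, was lower in the RBPMS and RBFOX2 knockdowns at −0.55 and −0.31, Ash1l was lower in QKI knockdown at −0.76, and Men1 was higher at 0.31, 0.62 and 0.47. Kmt2a, the methyltransferase best known for keeping Hox genes active, was lower in RBPMS knockdown at −0.42 and in QKI knockdown at −0.54 and higher in RBFOX2 knockdown at 0.43. Its SE was 0.09 in each. The RBPMS knockdown libraries were at 81.8, 56.5 and 78.5 CPM for Kmt2a, with the second library lowest, against 92.2 to 103 CPM in control.

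Retinoic acid induces anterior Hox genes in embryos, and 12 of 16 genes of its pathway were tested. They gave 5 higher and 4 lower with the RBPMS siRNA, 6 and 3 with the RBFOX2 siRNA, and 4 and 6 with the QKI siRNA. Cyp26b1, which degrades retinoic acid, averaged 3.89 CPM in control, rose by 1.24 and 1.61 (SE 0.10 each) on the log2 scale with the RBPMS and RBFOX2 siRNAs to 9.20 and 11.9 CPM, and was lower with the QKI siRNA, at 3.19 CPM (−0.29, SE 0.11). Aldh1a3, which makes retinoic acid, was higher in all 3 at 0.67, 0.64 and 1.22. Crabp2, a binding protein, was higher in the RBPMS and RBFOX2 knockdowns at 0.27 and 0.37 and lower in QKI knockdown at −0.89. The receptor gene Rxra was lower at −0.25, −0.47 and −0.74.

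**Figure D5:**
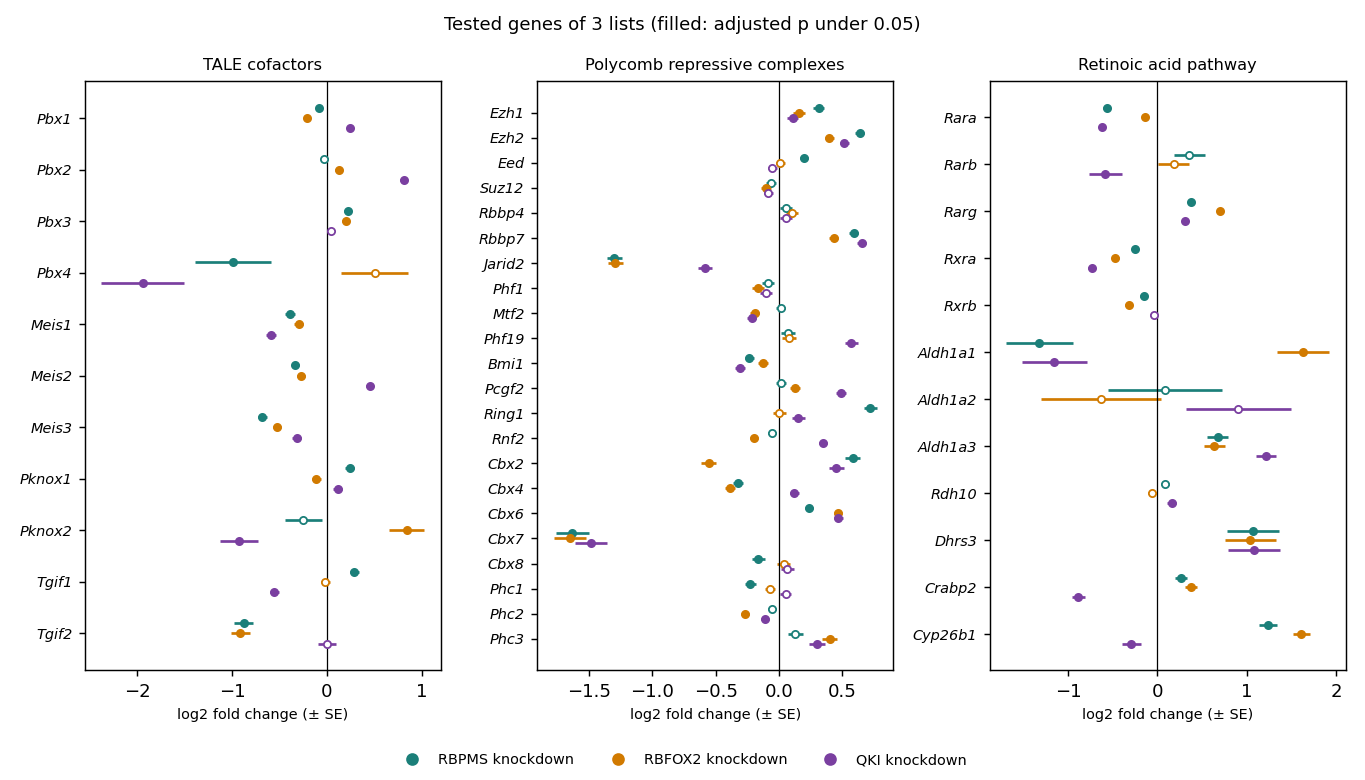
Points give the log2 fold change against control with SE bars, with filled points for an adjusted p under 0.05. The panels hold the tested genes of the TALE class (11), the Polycomb complexes (22) and the retinoic acid pathway (12). Cbx7 and Jarid2 lie to the left in all knockdowns, and Cyp26b1 lies to the right in the RBPMS and RBFOX2 knockdowns.

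Of the ParaHox genes and factors known to act upstream of Hox genes in embryos, 3 of 10 were tested. Cdx1, a direct regulator of Hox genes in the trunk, fell from 2.00 CPM in control to 0.737, 1.00 and 0.529 CPM, which is −1.44, −0.99 and −1.93 on the log2 scale (SE 0.21, 0.20 and 0.22; adjusted p 1.29e-05, 3.49e-04 and 4.26e-07). Egr2, a hindbrain factor, was lower in RBPMS knockdown at −0.39 and in QKI knockdown at −0.59, and Gdf11, a signal for posterior Hox genes, was higher at 0.09, 0.66 and 0.54. Cdx2 and Pdx1 had at most 6 counts and Cdx4, Gsx1 and Gsx2 had 0.

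Genes that flank the clusters were included to see whether they moved with them. Of 7 tested neighbours, 3 were lower and 2 higher with the RBPMS siRNA, 5 and 2 with the RBFOX2 siRNA, and 6 and 0 with the QKI siRNA. Skap2, which flanks the anterior end of HoxA, was lower at −0.44, −0.32 and −1.79. Hibadh was higher at 0.28 and 0.74 and lower in QKI knockdown at −0.50, Smug1 was lower at −0.80 in RBFOX2 knockdown and −0.90 in QKI knockdown, and Snx10 was higher in the RBPMS and RBFOX2 knockdowns at 0.70 and 0.47. Evx1 and Evx2, homeobox genes at the posterior ends of HoxA and HoxD, had at most 4 and 2 counts.

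Homeobox genes outside the clusters gave 5 lower and 1 higher of 9 tested with the RBPMS siRNA, 2 and 0 with the RBFOX2 siRNA, and 4 and 1 with the QKI siRNA. Prrx1, a mesenchymal factor, was lower in QKI knockdown at −1.83 and in RBPMS knockdown at −0.35. Msx1 was lower in all 3 at −0.46, −0.69 and −0.96. Among 8 genes of CTCF and cohesin, which shape chromosome loops, 1 was higher and 0 lower in RBPMS knockdown, and 1 was higher and 4 lower in each of the other knockdowns, and Stag2 was lower in QKI knockdown at −1.03. Nipbl, the cohesin loader, was higher at 0.25 and 0.47 in the RBPMS and RBFOX2 knockdowns and lower at −0.62 in QKI knockdown. The second RBPMS knockdown library, at 99.3 CPM for Nipbl, fell within the control range of 90.3 to 101 CPM. Smc3, a cohesin subunit, was lower at −0.46 in RBFOX2 knockdown and higher at 0.28 in QKI knockdown.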

How the data were processed

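Total RNA of rat PAC1 cells was sequenced after siRNA transfection, and the groups follow the sample titles. The authors deposited raw counts per gene (STAR alignment to mRatBN7.2, featureCounts) and a normalised signal (noisyR filter, quantile normalisation), which served as an alternative only. Strand and multi-mapping settings of the counting are not given in the sources used here. Replicate numbers did not pair the libraries.

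The counts went into edgeR 4.0.16 under R 4.3.3 (filterByExpr, TMM, quasi-likelihood, all 12 libraries, Benjamini-Hochberg over 18438 genes). SE is the absolute log2 fold change divided by the square root of F. Scripts were tested on simulated data. Alternatives used DESeq2 1.42.0 and limma 3.58.1, the latter on log2(value + 1).

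Members and lists were chosen with earlier results of these data known. Library values were to be given for changed members with a mean of at least 1 CPM and the highest of each cluster, and those of further members were added after their values were seen. Up to 4 genes per list with the largest change past the threshold and at least 1 CPM were named, and Meis1, Ezh2, Kmt2a and genes with few counts were added after their values were seen. Some genes that enter the counts are not reported here by name.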

Additional observations from a re-analysis of the deposited data

Results flagged for a closer look

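For Hoxa2 and Hoxb4 the knockdowns passed the test in opposite directions against the shared control, and the direct comparison of the knockdowns passed the test too. Hoxa2 was higher in RBFOX2 than in RBPMS knockdown by 0.93 (SE 0.05) on the log2 scale, and its difference of QKI minus RBFOX2 knockdown was −1.15 (SE 0.05). Hoxb4 differed by −0.70 (SE 0.05) for QKI minus RBPMS knockdown and by −0.76 (SE 0.05) for QKI minus RBFOX2 knockdown. In each of the 4 comparisons the 15 alternatives kept the direction and the call, with ranges of 0.91 to 1.03 and −1.17 to −1.05 for Hoxa2 and −0.74 to −0.55 and −0.78 to −0.60 for Hoxb4.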

How the results depend on the processing

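Against control, 34 member comparisons passed the test, and 29 of them kept their direction and call under every alternative run. The exceptions were Hoxb6 and Hoxb7 in RBPMS knockdown, Hoxb7 in RBFOX2 knockdown, and Hoxb6 and Hoxc4 in QKI knockdown. Members under a mean of 200 counts have no value with that minimum, which alone lowers counts, and low counts limit Hoxb5, Hoxb8 and Hoxc4. For other changes the cause was not tested. The replicate numbers did not pair the libraries: none of 18 same-number pairs had a correlation of deviations above 0.1, and 3 of 12 libraries correlated best with their own number. With a replicate block the log2 fold change of Hoxc4 in QKI knockdown was −2.05 (adjusted p 0.0670), and the changed members numbered 1, 1 and 3 in RBPMS, RBFOX2 and QKI knockdown. An order of levels between genes per coding length was not run, because lengths were not used here. No scaling moved the median of all genes by over 0.1.

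With a mean of at least 200 counts, 0 members were changed in RBPMS and 0 in RBFOX2 knockdown, and 0, 1 and 1 differed in RBFOX2 against RBPMS, QKI against RBPMS and QKI against RBFOX2 knockdown. The HoxB median was then −0.55 in RBPMS and −0.57 in QKI knockdown. With the authors' normalised values 0 were changed in RBPMS knockdown, 1 in QKI knockdown and 1 between them, and the HoxB median was −0.28 in RBPMS and −0.19 in QKI knockdown. With glmTreat 0 were changed in RBPMS and 1 in QKI knockdown, and 0 differed between RBPMS and RBFOX2 and 0 between RBPMS and QKI. With library totals only, 2 were changed in QKI knockdown, 2 differed between RBPMS and RBFOX2, and the HoxB median was −0.39 in RBPMS and −0.26 in QKI knockdown. Without the filter on low counts the HoxB median in RBPMS knockdown was −0.36. Leaving out 1 library gave 0 to 2 changed members in RBPMS and 2 to 5 in QKI knockdown, 2 to 4 higher members in RBFOX2 knockdown, and 1 to 2 that differed between RBPMS and QKI. The HoxA median then ranged from −0.52 to −0.42 in RBPMS, 0.0425 to 0.20 in RBFOX2 and −0.42 to 0.0121 in QKI knockdown, the last turning without control 3, and the HoxB median from −0.44 to −0.30 in RBPMS and −0.41 to −0.26 in QKI knockdown.

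Values that turned their sign had not passed the test, apart from Hoxb2 between RBFOX2 and QKI knockdown, which was 0.0168 in the authors' normalised table. Hoxa7 in RBPMS knockdown was −0.0285 with library totals only and −0.000363 without the filter on low counts, and Hoxa9 in RBPMS knockdown was −0.0280 and −0.000428. Hoxb5 in RBFOX2 knockdown was −0.0187 in the normalised table. In QKI knockdown Hoxb7 was 0.0387 and Hoxb8 0.0684 with library totals only. Leaving out 1 library gave ranges of −0.0880 to 0.0715 for Hoxa7 and −0.0768 to 0.0814 for Hoxa9 in RBPMS knockdown, −0.16 to 0.44 for Hoxb5 and −1.03 to 0.24 for Hoxc4 in RBFOX2 knockdown, and −0.42 to 0.0121 for Hoxa6, −0.33 to 0.28 for Hoxb5 and −0.15 to 0.18 for Hoxb8 in QKI knockdown.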
